A study of Mus musculus with 8 samples.

Results

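Gsdme and 40 genes that flank it on mouse chromosome 6 are described here, 41 of the 55487 genes in the deposited table. The members were chosen by symbol: Gsdme itself and its neighbours on both sides, with the HoxA homeobox cluster included. Each symbol matched 1 row. They span 5.96 Mb of GRCm38, from 49036546 (Gpnmb) to 54992950 (Ggct), with 6 members at lower coordinates than Gsdme and 34 at higher ones. The study compared ileum RNA of mice given irinotecan, a topoisomerase I inhibitor used against tumours that can injure the gut, in 4 wild-type mice (genotype Gsdme+/+, here WT) and 4 Gsdme-deficient mice (genotype Gsdme-/-, here Gsdme_KO). All 8 mice were treated, so no value below is a response to irinotecan. For strain, age, dose, time and the design of the targeted allele, nothing is given in the sources used here.

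Gasdermin E, the product of Gsdme, is held inactive until a protease cuts it, after which its amino-terminal part forms pores in the plasma membrane and turns apoptosis into a lytic death. A neighbour of Gsdme, Cycs, encodes somatic cytochrome c, which leaves mitochondria during apoptosis and helps to assemble the apoptosome. A targeted allele can change more than its own gene: cassettes can alter nearby transcription, and a stretch of the donor strain's chromosome can stay linked to the target after breeding. The levels of the genes around Gsdme are therefore a usual check on such an allele. The HoxA genes lie near the middle of the span. They are transcription factor genes whose order along the chromosome follows their order of use along the body axis. Nod1, which encodes an intracellular sensor of bacterial peptidoglycan, lies near the end of highest coordinates.

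The promoters of Gsdme and of the 2 next members at higher coordinates are shown. They were chosen because, among the members, these genes lie closest to the target and were measured at high or moderate levels. The sequences are RefSeq's (GRCm38.p6), each 300 bases on the gene's own minus strand, from 250 before to 50 after the annotated start. Capitals mark the GC box GGGCGG or its complement CCGCCC. They lie at chr6:50261720-50262019 for Gsdme, chr6:50456121-50456420 for Osbpl3 and chr6:50566520-50566819 for Cycs.
Gsdme: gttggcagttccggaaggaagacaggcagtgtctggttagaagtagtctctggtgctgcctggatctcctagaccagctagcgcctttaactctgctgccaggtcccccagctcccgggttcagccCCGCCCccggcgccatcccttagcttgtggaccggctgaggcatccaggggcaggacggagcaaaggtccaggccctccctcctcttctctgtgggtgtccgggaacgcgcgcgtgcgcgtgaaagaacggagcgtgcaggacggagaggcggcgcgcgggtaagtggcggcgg
Osbpl3: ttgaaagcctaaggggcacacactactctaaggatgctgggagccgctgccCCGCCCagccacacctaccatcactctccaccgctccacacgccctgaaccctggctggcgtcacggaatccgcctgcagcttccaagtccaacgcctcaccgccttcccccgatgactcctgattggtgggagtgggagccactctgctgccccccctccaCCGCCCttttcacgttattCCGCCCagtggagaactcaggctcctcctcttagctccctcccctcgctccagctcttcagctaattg
Cycs: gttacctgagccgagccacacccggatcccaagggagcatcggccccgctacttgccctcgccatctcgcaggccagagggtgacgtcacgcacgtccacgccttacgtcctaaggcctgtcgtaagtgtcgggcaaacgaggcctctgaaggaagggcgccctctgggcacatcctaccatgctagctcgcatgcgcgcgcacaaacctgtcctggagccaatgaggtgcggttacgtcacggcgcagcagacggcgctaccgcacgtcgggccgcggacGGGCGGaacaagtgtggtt
Of the 41 members, 38 had a promoter in the RefSeq table, and the first listed was used. GGGCGG, searched on both strands, occurred in 25 of these 38 (65.8%), against 35.7% of the 32851 promoters in the table. CCAAT, on both strands, occurred in 18 (47.4%, against 37.4%), and TATAAA, on both strands, in 4 (10.5%, against 13.6%). The median number of CpG dinucleotides was 22 in the members' promoters and 7 over all promoters. The Gsdme promoter held 24 and the Cycs promoter 32. The members are all protein-coding genes, and the comparison took every promoter in the table without matching for gene type. No trait of this region is therefore read from the shares. These matches describe the letters only.

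Gsdme (ENSMUSG00000029821, chromosome 6, 50188888 to 50263862, minus strand, GRCm38) was low in every Gsdme_KO library. Its level in normalized counts (reads divided by a size factor per library) was 3376 in WT3, 2169 in WT5, 3164 in WT7 and 2696 in WT8. In Gsdme_KO it was 113 (KO4), 187 (KO5), 634 (KO7) and 464 (KO8). The genotypes did not overlap, and the lowest WT library lay 3.42-fold above the highest Gsdme_KO library. The means were 2851 ± 536 and 349 ± 242 (SD, n = 4 each), so that Gsdme_KO held 12.3% of the WT level. The difference of mean log2(normalized count + 1) was -3.32 (two-sided exact permutation test over 70 assignments, p = 0.0286, the smallest this design can give).

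The remaining Gsdme signal was uneven among the deficient mice. Relative to the WT mean, KO4 kept 3.98%, KO5 6.56%, KO7 22.2% and KO8 16.3%, a 5.59-fold range, whereas the WT libraries ranged 1.56-fold. KO4 and KO5 also had the lowest sums of enterocyte markers: the summed level of the 7 mature enterocyte markers was 107759 (KO4) and 177546 (KO5), while KO7 and KO8 reached 449144 and 330311 and WT 244823 to 456304. KO4 lay below every WT library for 6 of the 7 markers, all but Apoa4, whereas KO5 did so for Anpep, Fabp2 and Cubn only. In KO5, Alpi, Apoa1 and Slc5a1 lay within the WT range and Apoa4, at 15668, was the highest of the 8 libraries. None of these 7 markers was at 0 in any library. The summed level of 5 general epithelial markers ran from 208942 to 250527 in Gsdme_KO and from 217259 to 262281 in WT. The part of these cell type differences in the residual Gsdme signal was not tested, and in bulk tissue fewer cells of a type cannot be told apart from less RNA per cell.

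Reads at Gsdme are counted over 12742 exonic bases in the GENCODE M21 annotation, from 7 transcripts, 5 of them protein-coding. The convergent gene Pals2, which encodes a membrane scaffold protein, overlaps the Gsdme gene body by 10052 bases but shares 0 exonic bases with it. Pals2, which is no member, had 638, 522, 711 and 741 normalized counts in WT3, WT5, WT7 and WT8, and 908, 640, 567 and 530 in KO4, KO5, KO7 and KO8. These ranges overlapped (log2 fold change -0.0016, SE 0.183, limma adjusted p = 0.999). Which exons the residual Gsdme reads cover cannot be read from a table of 1 value per gene.

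In the limma-trend fit across all 16352 genes whose mean reached 10 normalized counts, with calls made at a Benjamini-Hochberg adjusted p below 0.05, 33 of the 41 members were tested and 0 were called, where 0.00612% of all genes tested were. Gsdme had the second smallest unadjusted p of all genes (9.62e-05) and no tested gene had a more negative log2 fold change (-3.32, SE 0.492, 95% interval -4.43 to -2.20), yet its limma adjusted p was 0.786. DESeq2 on the recovered reads called Gsdme (log2 fold change -3.03, adjusted p = 2.30e-07), as 1 of 9 genes it called (0.0553% of those with an adjusted p). The limma fit also called it once KO4 and KO5 were both left out (log2 fold change -2.37, adjusted p = 0.0296), where the 4 WT libraries were set against KO7 and KO8 and 0.00612% of all genes tested were called. Gsdme was then also the 1 member at an unadjusted p under 0.05, against 2.76% of all genes tested. At an unadjusted p under 0.05 stood 2 of the 33 members (6.06%), Gsdme and Plekha8, against 4.38% of all genes tested. Both were lower in Gsdme_KO, where 1.77% of all genes tested were lower and 2.61% higher at that threshold. Genotypes without overlap were found for 1 member, Gsdme (3.03%), against 2.5% of all genes tested (1.19% lower and 1.31% higher in Gsdme_KO).

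**Figure D1:**
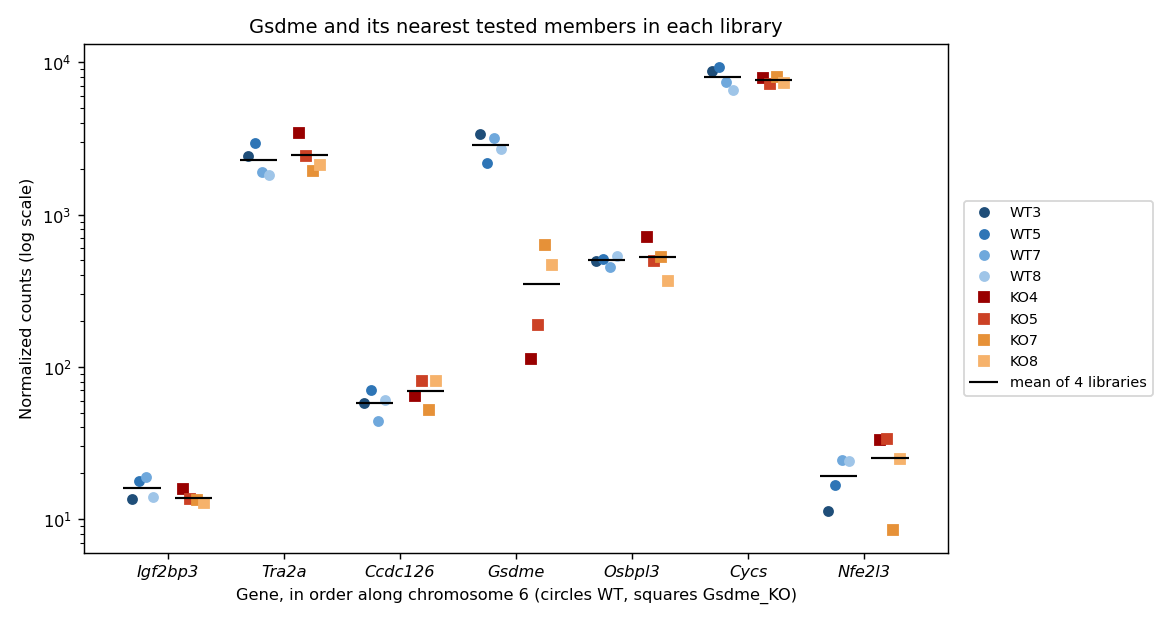
Normalized counts (log scale) of Gsdme and its 3 nearest tested members on each side, in order along chromosome 6; circles are the 4 WT libraries, squares the 4 Gsdme_KO libraries and black lines the means of 4. Gsdme falls from a mean of 2851 to 349 without overlap, while the libraries of the 6 flanking genes overlap between genotypes.

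The genes nearest to Gsdme showed no such fall. Osbpl3, which encodes an oxysterol-binding protein that acts at membrane contact sites, lies 29.5 kb from Gsdme. It had 497, 511, 455 and 537 normalized counts in WT3, WT5, WT7 and WT8, and 713, 493, 526 and 368 in KO4, KO5, KO7 and KO8. The Gsdme_KO libraries held both the highest and the lowest value, so that the genotypes overlapped. The log2 fold change was 0.03 (95% interval -0.38 to 0.44, limma adjusted p = 0.975), and the interval stays within 1.5-fold in either direction.

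Cycs, 299 kb from Gsdme, was among the most abundant members. Its normalized counts were 8720, 9290, 7416 and 6541 in WT3, WT5, WT7 and WT8, and 7868, 7220, 8014 and 7325 in KO4, KO5, KO7 and KO8. All Gsdme_KO libraries lay within the WT range (log2 fold change -0.06, 95% interval -0.33 to 0.22, limma adjusted p = 0.933). Cytochrome c RNA thus differed between genotypes by less than the spread among WT mice. The next nearest members were near 0: Npvf, the precursor of RFamide neuropeptides, had 8 reads over the 8 libraries together, and Stk31, a kinase gene of the germ line, had 3. Genes that are no members also lie this close. Pals2 overlaps Gsdme, as given above. Npy, 0.36 Mb away on the side of lower coordinates, had 29.2 ± 12.5 normalized counts (WT) and 32.5 ± 15.4 (Gsdme_KO; SD; log2 fold change 0.13, limma adjusted p = 0.950).

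On the side of lower coordinates, Ccdc126 had 57.9, 70.3, 44.3 and 60.4 normalized counts in WT3, WT5, WT7 and WT8, and 64.5, 81.1, 52.4 and 81.2 in KO4, KO5, KO7 and KO8. Its genotypes overlapped (log2 fold change 0.25, 95% interval -0.23 to 0.74). Nfe2l3, a bZIP factor related to NRF2 and the next tested member beyond Cycs, was low, at 11.3, 16.7, 24.3 and 24.0 in WT and 33.2, 33.8, 8.53 and 24.6 in Gsdme_KO, in the same order of libraries. KO7 held its lowest value and KO4 and KO5 its highest.

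Genes that bind RNA or chromatin lay on both sides. Tra2a, a regulator of splicing, had 2421, 2971, 1892 and 1804 normalized counts in WT3, WT5, WT7 and WT8, and 3423, 2435, 1918 and 2103 in KO4, KO5, KO7 and KO8. KO4 was the highest library and the other 3 Gsdme_KO libraries lay within the WT range. Igf2bp3, an mRNA-binding protein of fetal tissue and tumours, was near the limit of the filter, at 13.6, 17.9, 18.8 and 14.1 in WT and 15.7, 13.5, 13.4 and 12.8 in Gsdme_KO. It shares 1529 exonic bases on the opposite strand with Malsu1, a mitochondrial ribosome factor, so that their reads cannot be fully told apart where the counting did not use strand. Hnrnpa2b1, which encodes an abundant ribonucleoprotein, and Cbx3, which encodes the heterochromatin protein HP1-gamma, start 466 bases apart and run in opposite directions. Hnrnpa2b1 averaged 13507 ± 1256 normalized counts (WT) and 13445 ± 1441 (Gsdme_KO, SD, n = 4; log2 fold change -0.01, 95% interval -0.27 to 0.25). Cbx3 had 627 ± 146 and 660 ± 65.4 (log2 fold change 0.10, 95% interval -0.28 to 0.47). Per kilobase of exon the pair differed widely, at 2051 and 105 normalized counts per kb in WT.

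Over the 32 tested members other than Gsdme, 15 log2 fold changes were above 0 and 17 below. Their median was -0.01, against 0.00 over all genes tested, and the median absolute value was 0.17, against 0.14. The 95% interval lay within a 2-fold change in either direction for 24 of the 32, and within 1.5-fold for 13. The 8 with a wider interval were Gpnmb, Nfe2l3, Snx10, Hoxa4, Jazf1, Cpvl, Prr15 and Wipf3. With 4 libraries a group, the intervals of those 8 reach past a 2-fold change.

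**Figure D2:**
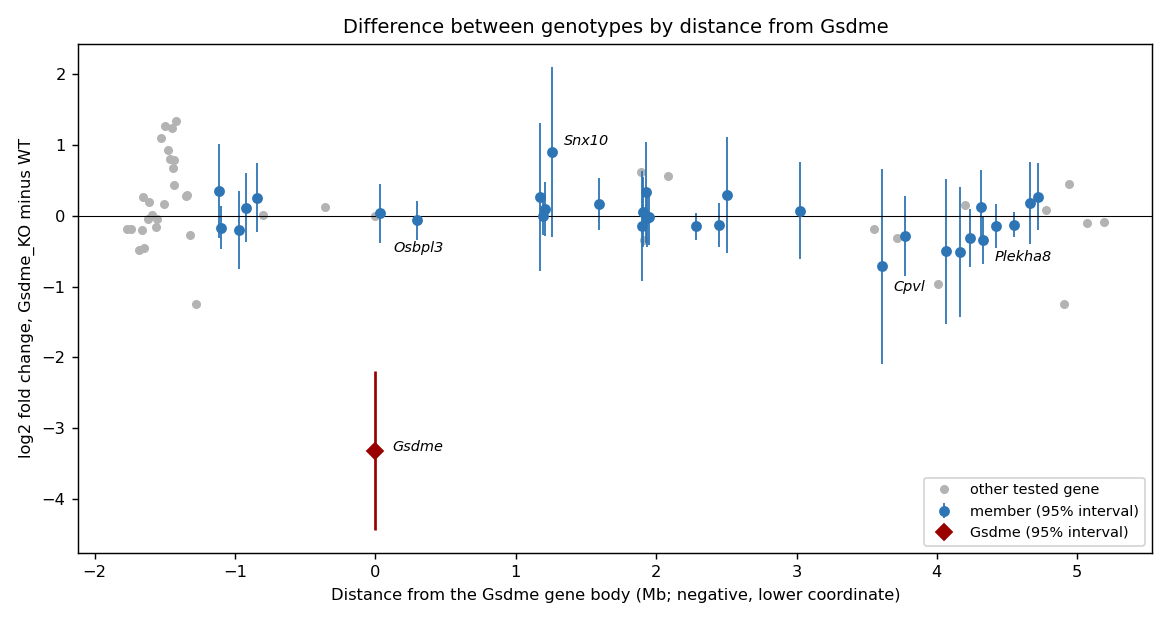
Log2 fold change (Gsdme_KO minus WT) against distance from the Gsdme gene body in Mb; blue points are tested members and the red diamond is Gsdme, each with its 95% interval, and grey points are other tested genes. Gsdme stands at -3.32, and the members around it lie between -0.71 (Cpvl) and 0.90 (Snx10).

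The HoxA genes overlapped between genotypes. Of the 10 HoxA members, 5 passed the filter, with log2 fold changes from -0.14 (Hoxa2, 14.5 ± 4.76 normalized counts in WT, 13.3 ± 4.804 in Gsdme_KO) to 0.33 (Hoxa4, 15.6 ± 4.29 and 20.1 ± 6.31). None of the 5 had an unadjusted p under 0.05 or genotypes without overlap, where 4.38% and 2.5% of all genes tested did, so 0 of 5 is near the background. Hoxa7 was the most abundant, at 158, 138, 115 and 123 normalized counts in WT3, WT5, WT7 and WT8, and 122, 120, 174 and 115 in KO4, KO5, KO7 and KO8. KO7 was highest and the rest of Gsdme_KO lay inside or beside the WT range (log2 fold change -0.02, 95% interval -0.42 to 0.38). Hoxa5 had 98.7, 95.3, 89.6 and 90.2 in WT and 65.4, 102, 101 and 101 in Gsdme_KO, in the same order. Apart from KO4, the Hoxa5 level of each Gsdme_KO library was slightly above all WT libraries. Hoxa3 had 47.7, 61.9, 46.5 and 44.7 in WT and 38.7, 68.3, 48.7 and 55.7 in Gsdme_KO, with KO4 lowest and KO5 highest.

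**Figure D3:**
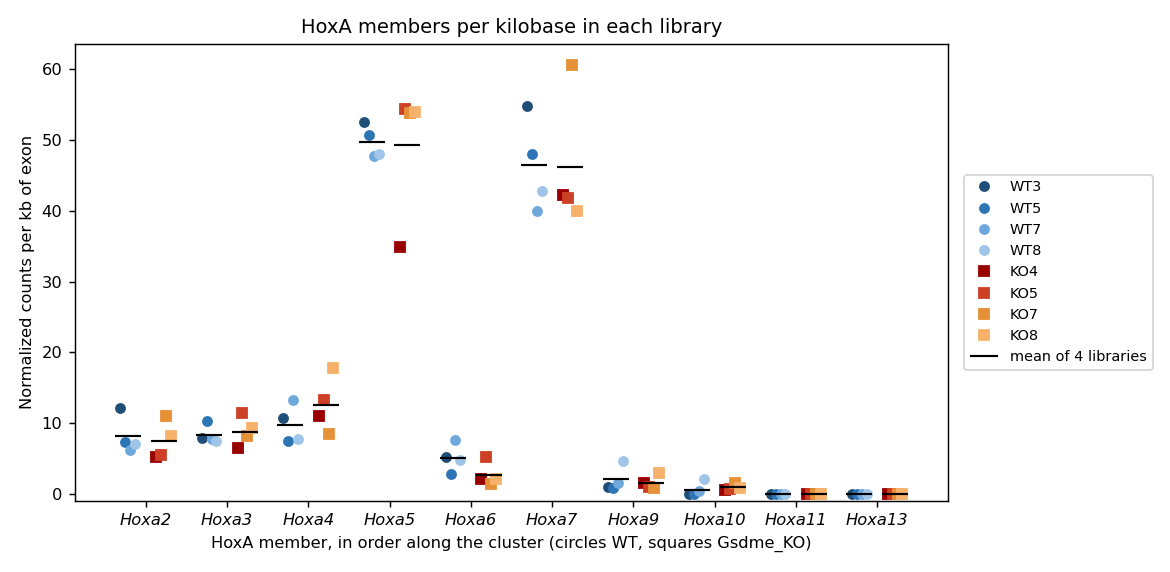
Normalized counts per kilobase of exon for the 10 HoxA members in order along the cluster; circles are WT libraries, squares Gsdme_KO libraries and black lines the means of 4. Hoxa5 and Hoxa7 reach WT means of 49.8 and 46.4 per kb, and Hoxa11 and Hoxa13 are at 0 in every library.

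Per length, Hoxa5 and Hoxa7 stood above the other HoxA genes in both genotypes. In normalized counts per kb of exon, the WT means were 8.19 for Hoxa2, 8.34 for Hoxa3, 9.78 for Hoxa4, 49.8 for Hoxa5, 5.06 for Hoxa6 and 46.4 for Hoxa7. They dropped to 2.01 for Hoxa9 and 0.591 for Hoxa10. The Gsdme_KO means were 49.3 for Hoxa5, 46.2 for Hoxa7 and 1.56 for Hoxa9. Hoxa2, Hoxa3 and Hoxa4 lay close together in this order and Hoxa5 and Hoxa7 overlapped in their library values. Hoxa11 and Hoxa13, which pattern the most posterior structures, had 0 reads in all 8 libraries, which allows up to 2.25 (KO5) to 3.65 (KO7) normalized counts per library, for counting error only. Hoxa9 just missed the filter with a mean of 9.98 normalized counts, and its libraries ran from 4.76 (WT5) to 25.7 (WT8). Evx1, a homeobox gene beside the cluster, had 5 reads in KO4, 4 in KO5 and 0 in the other 6 libraries.

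Hox genes of the other clusters, which lie on other chromosomes, were set beside HoxA. Of 28 in the table, 15 were tested, 5 with log2 fold changes above 0 and 10 below (median -0.16, range -0.49 to 0.28). Of these 15, Hoxb6 alone had an unadjusted p under 0.05 (log2 fold change -0.40, limma adjusted p = 0.849). The median of the HoxA cluster list, which had the same 5 tested genes since Evx1 was below the filter, was -0.02. Without KO4 and KO5 the median was 0.07 in the other clusters and 0.12 in HoxA.

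Among the 32 tested neighbours, Snx10 had the largest absolute log2 fold change, and KO4 carried most of it. Snx10, a sorting nexin of endosomes that osteoclasts and macrophages use, had 212, 216, 256 and 324 normalized counts in WT3, WT5, WT7 and WT8. Its level was 1602 (KO4), 418 (KO5), 263 (KO7) and 262 (KO8). KO4 and KO5 lay above every WT library, and KO7 and KO8 within the WT range. The log2 fold change was 0.90 (SE 0.529, limma adjusted p = 0.849). It was 0.31 without KO4 and 0.08 without KO4 and KO5. The count tests gave Snx10 an unadjusted p of 0.0133 (DESeq2, adjusted p = 0.479) and 0.0472 (edgeR, adjusted p = 0.812), so neither called it. Unadjusted p under 0.05 were found for 6.94% of all genes tested with DESeq2 and 6.01% with edgeR.

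Gpnmb, a membrane glycoprotein of macrophages and pigment cells, had 334, 237, 302 and 229 normalized counts in WT3, WT5, WT7 and WT8, and 659, 264, 263 and 321 in KO4, KO5, KO7 and KO8. Again KO4 stood alone, and its log2 fold change went from 0.35 to 0.05 without KO4. Nod1 had 214, 218, 200 and 224 in WT and 386, 293, 162 and 188 in Gsdme_KO, in the same order. KO4 and KO5 lay above every WT library and KO7 and KO8 below, so that its log2 fold change of 0.18 (95% interval -0.40 to 0.76) turned to -0.29 without KO4 and KO5. Skap2, an adaptor of integrin signalling in myeloid cells, had 1049 (KO4), 996 (KO5), 660 (KO7) and 697 (KO8), and 696 to 842 in WT (log2 fold change 0.17).

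Sums of macrophage, B cell and T cell markers were highest in KO4, followed by KO5. The 6 macrophage and monocyte markers summed to 11724 (KO4), 8881 (KO5), 5200 (KO7) and 6082 (KO8) normalized counts, and to 5730 to 8346 in WT, and none was at 0 in any library. Lyz2 alone gave 6411 of the KO4 sum. KO4 and KO5 lay above every WT library for Csf1r, Cd68, Lyz2 and C1qa. For Mrc1 KO4 did so (1224), whereas KO5 (665) lay below WT8 (742). For Adgre1 both lay within the WT range, at 266 (KO4) and 211 (KO5), and WT8 was highest, at 268. The 8 B cell and follicle markers summed to 9233 (KO4), 5237 (KO5), 312 (KO7) and 236 (KO8), and to 204 to 308 in WT, with 1 marker at 0 in at least 1 library. The 5 T cell markers summed to 1838 (KO4), 1224 (KO5), 803 (KO7) and 822 (KO8), and to 352 to 841 in WT. Gpnmb did not follow the macrophage sum in every library. It was within the WT range in KO5, at 264, and lowest of all in WT8, at 229, which had the highest WT sum. The part of these cells in the levels of Snx10, Gpnmb, Nod1 and Skap2 was not tested.

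**Figure D4:**
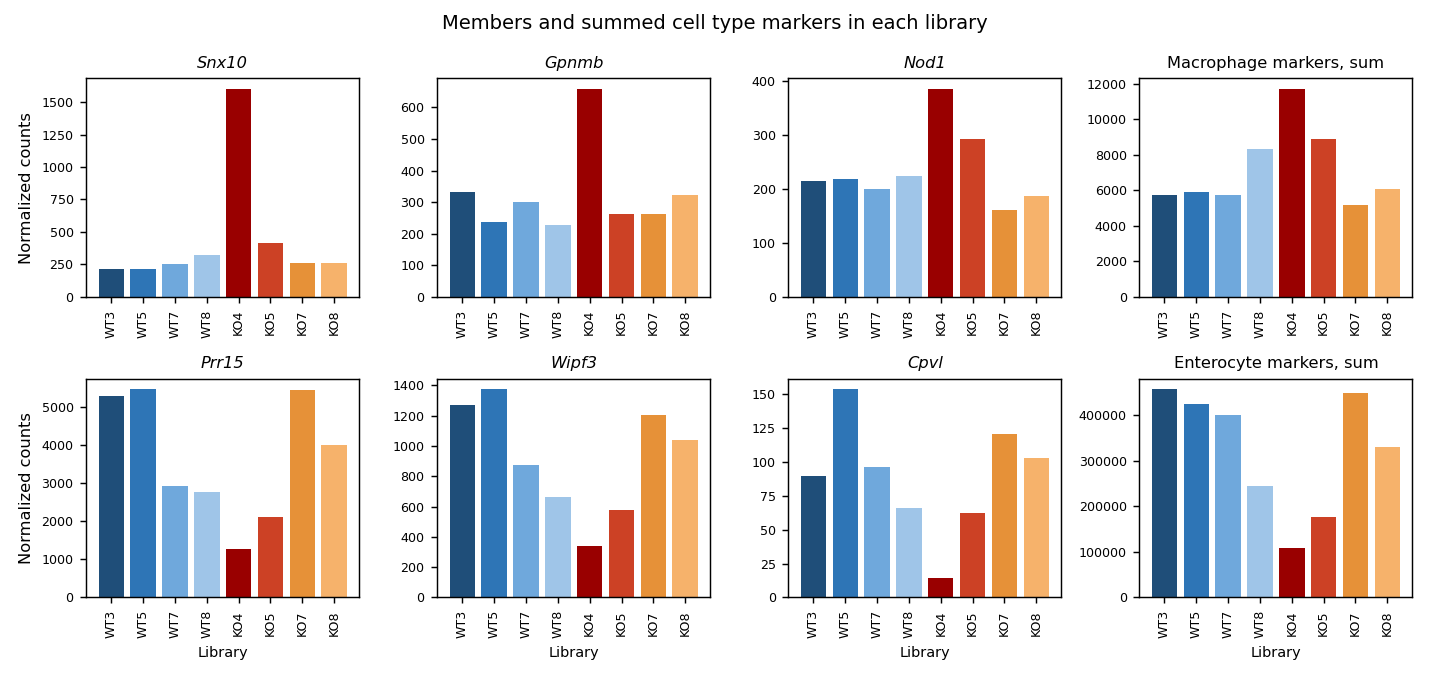
Normalized counts in each library (bars, from 0) of Snx10, Gpnmb and Nod1 beside the summed macrophage markers, and of Prr15, Wipf3 and Cpvl beside the summed mature enterocyte markers; blue bars are WT and red to orange bars Gsdme_KO. KO4 has the highest bar in the upper row, with Snx10 at 1602, and the lowest in the lower row, with Cpvl at 14.7.

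Cpvl, Chn2, Prr15 and Wipf3, adjacent members grouped here after their values were seen, were lowest in KO4. So were Scrn1, Plekha8 and Znrf2 farther along the chromosome, but not Fkbp14 and Mturn between them. Nod1 and Ggct, farther still, were highest in KO4. Prr15, a proline-rich protein gene, had 5275, 5458, 2919 and 2761 normalized counts in WT3, WT5, WT7 and WT8, and 1259, 2108, 5430 and 3993 in KO4, KO5, KO7 and KO8. Wipf3, of the WASP-interacting protein family that acts on actin, had 1270, 1373, 872 and 661 in WT and 341, 577, 1202 and 1040 in Gsdme_KO, in the same order. For both genes KO4 and KO5 lay below every WT library, and KO7 and KO8 inside the WT range. Cpvl, a serine carboxypeptidase gene, had 89.6, 154, 96.3 and 66.2 in WT and 14.7, 62.3, 121 and 103 in Gsdme_KO. Chn2, which encodes a Rac GTPase-activating protein, had 401 in KO4 and 702 to 993 in the other 7 libraries (log2 fold change -0.29). The log2 fold changes of Prr15, Wipf3 and Cpvl were -0.50, -0.51 and -0.71, and turned to 0.25, 0.16 and 0.20 without KO4 and KO5. Summed mature enterocyte markers were lowest in the same 2 libraries, at 107759 and 177546, and their part in these values was not tested.

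Plekha8 was the 1 member besides Gsdme with an unadjusted p under 0.05. It encodes FAPP2, a carrier of glucosylceramide from the Golgi, and lies 4.33 Mb from Gsdme. It had 1244, 1360, 1063 and 1158 normalized counts in WT3, WT5, WT7 and WT8, and 707, 1024, 1034 and 1068 in KO4, KO5, KO7 and KO8. KO8 reached into the WT range, so that the genotypes overlapped by that 1 library. The log2 fold change was -0.34 (SE 0.145, unadjusted p = 0.0423, limma adjusted p = 0.849), and -0.21 without KO4. Plekha8 shares 208 exonic bases with Fkbp14 on the opposite strand.

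The other trafficking and immune members had narrower intervals. Tax1bp1, an autophagy receptor that also restrains NF-kappaB signalling, averaged 8659 ± 432 normalized counts (WT) and 8025 ± 1600 (Gsdme_KO; SD, n = 4; log2 fold change -0.13, 95% interval -0.44 to 0.18). KO4 was its highest library, at 10324, and the other 3 Gsdme_KO libraries, at 6884 to 7903, lay below every WT library. Znrf2, an E3 ubiquitin ligase gene, had 1371 ± 101 and 1254 ± 40.9 (log2 fold change -0.13, 95% interval -0.30 to 0.05).

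None of the 5 metabolic, mitochondrial and endoplasmic reticulum genes was called. Hibadh, an enzyme of valine breakdown, averaged 1026 ± 53.2 normalized counts (WT) and 929 ± 76.3 (Gsdme_KO; SD, n = 4; log2 fold change -0.15, 95% interval -0.34 to 0.05, limma adjusted p = 0.849). Malsu1 had 230 ± 33.3 and 204 ± 20.4 (log2 fold change -0.17). Scrn1, which encodes secernin 1 and shares 242 exonic bases with Wipf3 on the opposite strand, had 124 ± 25.1 and 99.5 ± 13.7 (log2 fold change -0.31). Ggct, an enzyme of glutathione turnover, had 125 ± 14.8 and 154 ± 48.1, with 226 in KO4 (log2 fold change 0.27). Fkbp14, a prolyl isomerase that helps collagen to fold, had 114 ± 34.98 and 123 ± 27.2 (log2 fold change 0.13). In this list of 5, 2 log2 fold changes were positive and 3 negative, and 0 had an unadjusted p under 0.05, which with 4.38% of all genes tested at that threshold says nothing particular of so short a list.

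The remaining members were transcription factors and Mturn. Jazf1, a zinc finger subunit of a histone acetyltransferase complex, averaged 29.3 ± 13.3 normalized counts (WT) and 32.9 ± 2.63 (Gsdme_KO; SD, n = 4), and Creb5, a bZIP factor, had 38.4 ± 13.0 and 39.9 ± 11.4. With Nfe2l3, all 3 had positive log2 fold changes, from 0.07 to 0.29, and limma adjusted p from 0.888 to 0.966. Mturn, a gene of neural differentiation, had 215 ± 19.8 and 196 ± 29.2 (log2 fold change -0.14).

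**Figure D5:**
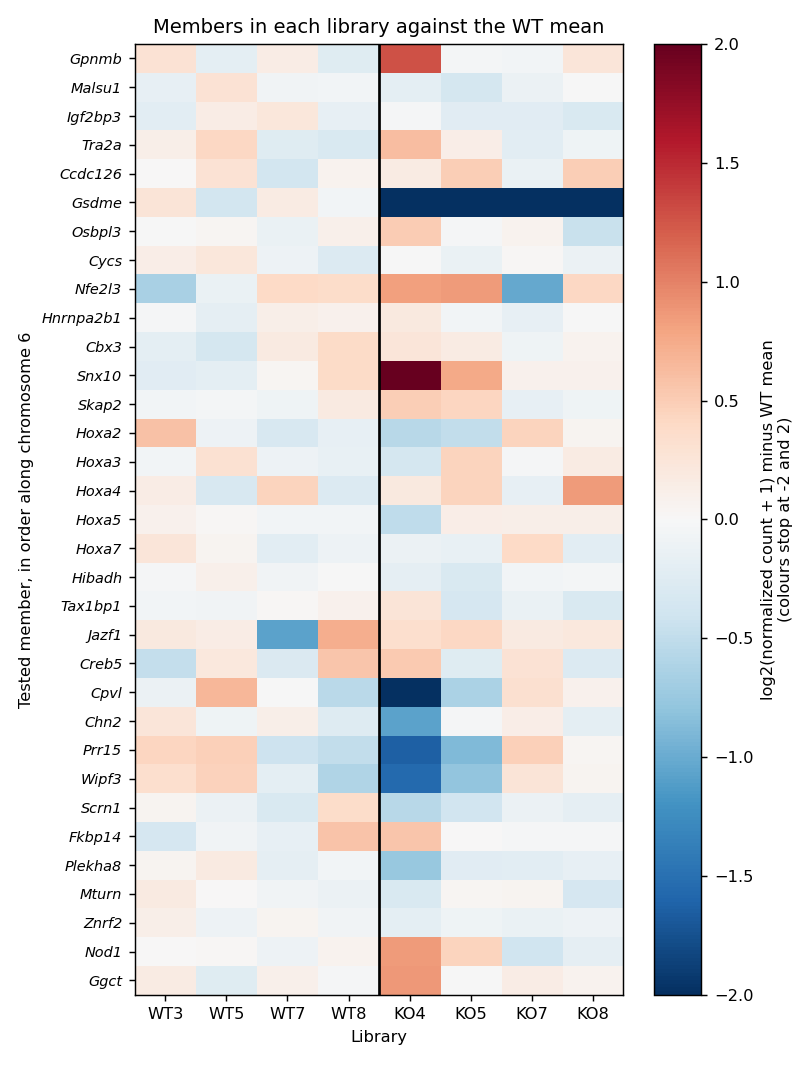
Log2(normalized count + 1) minus the WT mean for the 33 tested members (rows, in order along chromosome 6) in the 8 libraries (columns); colours stop at -2 and 2. The Gsdme row is dark blue in all 4 Gsdme_KO libraries, and KO4 is the highest or lowest library for 19 of the other 32 members.

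KO4 was an extreme library for many of these genes, as it was for genes elsewhere. Among the 32 tested neighbours it was the highest library for 9 and the lowest for 10, so that 59.4% had KO4 at an extreme, against 50.01% of all genes tested. For KO5 these shares were 18.8% and 19.4%. Without KO4 and KO5, 13 of the 32 log2 fold changes had the other sign, and the median absolute value was 0.13, against 0.11 over all genes tested.

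The size of the differences was set beside distance from Gsdme. The median absolute log2 fold change was 0.09 over the 8 other tested genes within 1 Mb, 0.19 over the 81 within 5 Mb and 0.14 over all genes tested. Without KO4 and KO5 the order turned, to 0.165 within 1 Mb, 0.139 within 5 Mb and 0.114 over all genes tested. In the fit of all 8 libraries, the 8 nearest had a median log2 fold change of 0.02, from -0.19 to 0.25, and 0 had an unadjusted p under 0.05. Within 5 Mb, 5 of 81 tested genes had one (6.17%), within 10 Mb 8 of 123 (6.50%) and within 20 Mb 18 of 260 (6.92%), against 4.24% of the 637 genes farther away on chromosome 6 and 4.33% on all other chromosomes. Genotypes without overlap made up 2.47%, 2.44% and 2.69% of these windows, against 2.20% farther away on the chromosome and 2.49% elsewhere. Within 20 Mb, 7 such genes were higher in Gsdme_KO and 0 lower, against 6 and 8 farther away and 202 and 183 elsewhere. At an unadjusted p under 0.05, 16 were higher and 2 lower within 20 Mb, against 14 and 13 farther away and 397 and 272 elsewhere. Within 5 Mb, the 2 without overlap were Gm8129 and Mindy4 (4.94 Mb away, log2 fold change 0.44). The 20 Mb window takes in kappa antibody V segments from 17.3 Mb on, which are not independent of each other. Of these, Igkv9-120, Igkv15-103, Igkv14-100, Igkv10-96, Igkv4-58, Igkv4-55 and Igkv6-25 had an unadjusted p under 0.05, all higher in Gsdme_KO. Between 5 and 10 Mb, Trbc1, Herc3 and Gprin3 stood at that threshold. Trbc1, a T cell receptor gene, was highest in KO4 and KO5. Herc3, 8.57 Mb away, had 226 to 315 normalized counts in WT and 327 to 372 in Gsdme_KO, without overlap. Its log2 fold change was 0.44 (limma adjusted p = 0.849), and 0.50 without KO4 and KO5. For Gprin3, 9.08 Mb away, it was -0.67, and -0.23 without KO4 and KO5. Genes are not replicates, so the shares of these windows carry no test.

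The genes within 5 Mb that had an unadjusted p under 0.05 without being members were Gimap8, Gimap1os, Gimap1 and Gm8129. Gimap8 and Gimap1 belong to a cluster of GTPase genes of lymphocytes, 1.53 and 1.45 Mb from Gsdme. Gimap8 had 814 (KO4), 494 (KO5), 168 (KO7) and 198 (KO8) normalized counts, and 110 to 194 in WT (log2 fold change 1.10, and 0.21 without KO4 and KO5). The B cell and T cell marker sums were high in the same 2 libraries, and their part in this was not tested. Gm8129, a processed pseudogene 2.08 Mb away, had 37.4, 41.7, 23.2 and 33.9 in WT and 59.0, 49.6, 42.6 and 49.3 in Gsdme_KO, without overlap (log2 fold change 0.57, limma adjusted p = 0.849). Reads of a pseudogene can come from its parent gene, so its own level is uncertain. Over the 10 tested genes of the span that are no members, of 98 listed, 5 log2 fold changes were positive and 5 negative (median 0.00).

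The single gene that limma called in the whole table also lies on chromosome 6, 18.4 Mb from Gsdme. Igkv10-96 (68631963 to 68632442), a V segment gene of the kappa antibody light chain, had 166, 179, 235 and 280 normalized counts in WT3, WT5, WT7 and WT8, and 792, 1054, 797 and 974 in KO4, KO5, KO7 and KO8. All 4 Gsdme_KO libraries were high and the genotypes did not overlap (log2 fold change 2.09, SE 0.182, limma adjusted p = 0.0237). The log2 fold change was 2.06 without KO4 and KO5. KO7 and KO8 had B cell marker sums of 312 and 236, against 204 to 308 in WT, from a list without plasma cell genes. The part of B cells and plasma cells in the Igkv10-96 level was not tested. Leaving out any 1 library but WT8 ended the call, with adjusted p from 0.0506 (without KO4) to 0.181 (without KO8), while the log2 fold change stayed between 1.98 and 2.23. Of the 72 tested kappa variable segments, 50 had log2 fold changes above 0 and 22 below (from -2.69 to 3.97), and 8 had an unadjusted p under 0.05, all higher in Gsdme_KO. That is 11.1% of the segments, against 4.38% of all genes tested. Such segments resemble each other and their levels follow clones of B cells and plasma cells, so reads may be shared and the segments are not independent.

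Markers of the labelled tissue were present in every library. The 3 markers of ileum, Fabp6, Slc10a2 and Cubn, summed to 40134 to 100963 normalized counts in WT and 22889 to 92459 in Gsdme_KO, and none was at 0. KO4 (22889) and KO5 (32015) lay below every WT library in this sum. Cubn also belongs to the mature enterocyte list. Depth ran from 15617407 to 23437343 reads in genes per library. Fibroblast markers summed to 18800 to 36258 in WT and 20190 to 29801 in Gsdme_KO, and smooth muscle markers to 41550 to 51800 and 39729 to 62756. Enteric neuron and glia markers summed to 523 to 672 and 597 to 617.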

How the data were processed

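Poly(A) RNA of ileum was sequenced in 8 strand-specific libraries, 4 per genotype, per the labels' protocols. GRCm38, HISAT2, SAMtools, Subread's featureCounts and DESeq2 are listed in the submitters' processing notes. Versions, annotation release and strand setting: not given in the sources used here. Per the file headers and values, the deposited signal is counts divided by 1 size factor per library (0.821 to 1.33). Whole reads were recovered for 100% of values, within 0.01 reads. Every row had a gene ID, and 0 columns of values were unused. Header numbers (WT3, KO4 and so on) do not follow the labels' 1 to 4, so columns were assigned to a genotype only. Mice of 1 genotype are taken as replicates as the labels number them.

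With R 4.3.3, limma-trend (limma 3.58.1) was run on log2 values after adding 1 to each normalized count, for genes with a mean of at least 10, adjusted over all 16352. Fold changes on this scale understate changes of low genes. Alternatives were TMM factors, every gene with any read, a minimum mean of 50, pseudocounts of 0.5 and 5, quantile normalization, array weights, edgeR 4.0.16, DESeq2 1.42.0, each library left out, and KO4 and KO5 left out together. Simulated data served to test the script. Positions are from GENCODE M21 (GRCm38), which held 55227 of the IDs.

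Members with a mean of at least 10 are named, with values per library for Gsdme, the 3 nearest tested members on each side, members at an unadjusted p under 0.05 or without overlap, the 3 most abundant HoxA genes and members whose highest library is at least 3 times the median. Others were given per library after their values were seen, such as Cpvl, Prr15, Wipf3, Nod1 and Gpnmb. Genes outside the members were named if called on chromosome 6, or within 5 Mb at an unadjusted p under 0.05. Pals2 was named after its overlap with Gsdme was seen. The members, lists, markers and alternatives were chosen with earlier results of these data known.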

Additional observations from a re-analysis of the deposited data

Results flagged for a closer look

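In 7 of 66 groups of 4 libraries (33 tested members in 2 genotypes), 1 library lay far from the other 3, with a gap above 0.829 of the group's range. The nominal rate by chance is about 1 group in 20, and no share over all genes tested is given. All 7 were Gsdme_KO groups, 6 of them through KO4 and 1 through KO7. KO4 was the highest or lowest library for 50.01% of all genes tested, so the flags cannot be read as particular to the members. KO4 was high for Snx10, at 1602 normalized counts against 262 to 418 in the other 3 Gsdme_KO libraries. It was also high for Gpnmb (659 against 263 to 321), Ggct (226 against 123 to 138) and Fkbp14 (164 against 109 to 111). KO4 was low for Plekha8 (707 against 1024 to 1068) and Hoxa5 (65.4 against 101 to 102). KO7 was high for Hoxa7, at 174 against 115 to 122.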

How the results depend on the processing

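Of the 32 tested neighbours, 0 were called in any of the 18 alternatives, and 14 kept the sign of their log2 fold change in each that tested them. Gsdme kept its negative sign throughout. The number of members called was 1, Gsdme, with DESeq2 and without KO4 and KO5, and 0 with each other alternative. DESeq2 called 8 genes higher and 1 lower, and the fit without KO4 and KO5 called 0 higher and 1 lower. Leaving out 1 library gave 0 to 1 genes higher and 0 lower. Members at an unadjusted p under 0.05 numbered 3 with edgeR and 3 with DESeq2 (Gsdme, Plekha8 and Snx10), 1 with quantile normalization and without KO4 and KO5, and 1 to 2 with 1 library left out. The Gsdme difference of log2 means lay between -3.71 (without KO7) and -2.88 (without KO4), where the smallest exact permutation p possible is 0.0571.

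Without KO4 and KO5, the log2 fold change changed sign for Osbpl3 (-0.18), Tra2a (-0.15), Nfe2l3 (-0.30), Cbx3 (-0.012), Skap2 (-0.13), Hoxa2 (0.25), Hoxa5 (0.12), Hoxa7 (0.094), Cpvl (0.20), Prr15 (0.25), Wipf3 (0.16), Fkbp14 (-0.023) and Nod1 (-0.29). With array weights, the log2 fold change changed sign for Osbpl3 (-0.21), Tra2a (-0.037), Hoxa5 (0.075) and Nod1 (-0.067). With quantile normalization, the log2 fold change changed sign for Hnrnpa2b1 (0.038), Hoxa3 (-0.062) and Creb5 (-0.037). With 1 library left out, the log2 fold changes that crossed 0 ran over Osbpl3 -0.13 to 0.19, Cycs -0.15 to 0.018, Tra2a -0.056 to 0.25, Hnrnpa2b1 -0.075 to 0.046, Cbx3 -0.023 to 0.22, Hoxa2 -0.33 to 0.057, Hoxa3 -0.075 to 0.19, Hoxa5 -0.092 to 0.12, Hoxa7 -0.16 to 0.064, Jazf1 -0.067 to 0.53, Creb5 -0.090 to 0.26, Fkbp14 -0.014 to 0.32 and Nod1 -0.045 to 0.37. For each of these the cause was not tested beyond the library or scaling named. No paired analysis was possible because the labels number separate mice within each genotype, tie no number to a litter, batch or day, and the column headers carry other numbers. Depth limits the members below the filter, 8 of 41, which had 0 to 86 recovered reads over all libraries.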

Other observations

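Genes that act with gasdermin E, and other gasdermins, which lie on other chromosomes, were set beside the members, and those named were chosen after their values were seen. Gzmb, a granzyme of cytotoxic lymphocytes that can cut gasdermin E, had 176, 83.4, 179 and 92.7 normalized counts in WT3, WT5, WT7 and WT8, and 701, 209, 205 and 213 in KO4, KO5, KO7 and KO8, without overlap (log2 fold change 1.17, unadjusted p = 0.0277, limma adjusted p = 0.849). The T cell marker sums were 803 to 1838 in Gsdme_KO and 352 to 841 in WT, and their part in the Gzmb level was not tested. Of the 10 listed gasdermins 5 were tested, 4 positive and 1 negative, and 0 had an unadjusted p under 0.05, where 4.38% of all genes tested did. Gsdmd, the gasdermin of inflammasomes, had a log2 fold change of 0.10 (limma adjusted p = 0.921).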
